A study of Mus musculus with 8 samples.

Results

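Genes of the 5 complexes of oxidative phosphorylation were followed in brain RNA of ADAR2 mutant mice. Members were taken by symbol: names that begin with Ndufa, Ndufb, Ndufc, Ndufs, Ndufv, Uqcr, Atp5 or Cox4 to Cox8, together with Sdha to Sdhd, Cyc1 and Cycs. The rule found 73 genes on 100 spots, out of 8653 named genes on 12131 named spots, and none of the spots used was named Cycs. Complex I had 31 members, complex II 4, complex III 8, complex IV 15 and complex V 15. A value on all 8 arrays was required, and 72 members on 99 spots had it. Ndufaf7, an assembly factor of complex I, had values on 4 arrays and was not tested. The members are encoded in the nucleus, and the mitochondrially encoded subunits are outside the rule.

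Complexes I to IV of the inner mitochondrial membrane pass electrons from NADH and succinate to oxygen and, apart from complex II, pump protons. Complex V, the ATP synthase, uses the return of the protons to make ATP, and neurons draw most of their ATP from this chain. Each complex holds catalytic or core subunits, with accessory subunits around them in the complexes other than II. Assembly factors take part in the making of each complex and are absent from the finished enzyme. Some subunits of complex IV have tissue isoforms for heart and skeletal muscle or for testis.

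The mutants were 4 male mice, 19 weeks old, of the genotype ADAR-/-/GluR-B R/R, which lack ADAR2 (gene Adarb1) and carry Gria2 alleles coding for the arginine form of the receptor subunit GluR-B. The control was pooled RNA from brains of age-matched wildtype males, taken from 4 animals by the sample labels and the design text and from 6 by the labelling protocol. The sources used here name no strain. Each mutant brain went onto a pair of 2-colour cDNA arrays, labelled with Cy5 on one (Cy5 arrays below) and with Cy3 on the other (Cy3 arrays), 8 arrays in all. No wildtype mouse was hybridised on its own, and the tests do not see the spread among wildtype mice because the pool counts as 1 sample. No control carried the Gria2 alleles alone, and effects of the Adarb1 and Gria2 alleles cannot be told apart.

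The labels do not say which dye is the numerator of the deposited log2 ratios, so the signs given here follow the deposited values, with each array's median subtracted, and do not say whether a gene was higher or lower in the mutants. The mean ratio averages the Cy5 and the Cy3 array of a mouse. It contrasts mutant and pool if every ratio was formed in the same way with respect to genotype. The swap component is the Cy5 array minus the Cy3 array, divided by 2. It is mutant over pool if every ratio is Cy5 over Cy3, and in that case the mean ratio holds no contrast of genotypes. Both were tested with limma on the 4 mice, with Benjamini-Hochberg adjustment over 8107 genes. A gene is called positive or negative where its adjusted p was below 0.05. Errors of these quantities are limma's moderated SE (n = 4 mice).

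The arrays held 20211 to 20559 usable values each, with a standard deviation over spots of 0.812 to 0.852 on the Cy5 arrays and of 1.04 to 1.32 on the Cy3 arrays. Spot intensities were not used, so the number of arrays limits the precision, and the brain origin of the RNA could not be read from marker levels. Adarb1 was measured by 3 probes. Probe 18422 stood at 0.70 ± 0.165 in the mean ratio (limma adjusted p = 0.0226) and at -1.23 ± 0.163 in the swap component (adjusted p = 0.0383). Probe 18759 had 0.26 ± 0.409 (adjusted p = 0.653) and -1.33 ± 0.267 (adjusted p = 0.0424), and probe 14946 had 0.12 and -0.10 (adjusted p = 0.621 and 0.628). The sources used here do not say which part of a transcript a probe covers, and one that lies outside the disruption does not check the genotype. Gene names rest on a shift of 11 spots between annotation and values that was found in the data. At that shift, pairs of probes for one gene gave, in the mean ratio, Spearman rho = 0.28 across 2256 genes, against 0.012 at the same spot number and at most 0.091 at any other of 201 shifts. These are descriptions across genes, which are not replicates.

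Most members had positive mean ratios. Of 72 members tested, 43 were called positive, against 20.6% of all 8107 genes, and 3 were called negative, against 12.4% of all genes. The median member stood at 0.57, and the median of all genes at 0.023. Members ranged from -1.11 for Ndufb7 to 1.25 for Cox7c. A positive value on all 8 arrays was found for 33 members (45.8%) and for 1071 of all genes (13.2%). With the values as deposited the median of all genes moved to -0.14, and among all calls the positive share was 42.0% in place of 62.3%. With gene names read at the same spot number 10 of 66 members were called positive, against 1625 of all 8355 genes. As deposited, the members had 36 positive and 4 negative calls and a median of 0.40. Among all 8107 genes there were 1122 positive and 1550 negative calls as deposited. On the Cy5 arrays the median member stood at 0.29 and on the Cy3 arrays at 0.87, while the medians of all genes were -0.0096 and 0.060. None of the members, and no gene at all, was called from the Cy5 arrays alone, where 30 members were positive, and 1999 of all genes were positive or negative, at an unadjusted p below 0.05. In brain RNA, a different number of cells of a type and a different amount of an RNA per cell cannot be told apart.

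**Figure D1:**
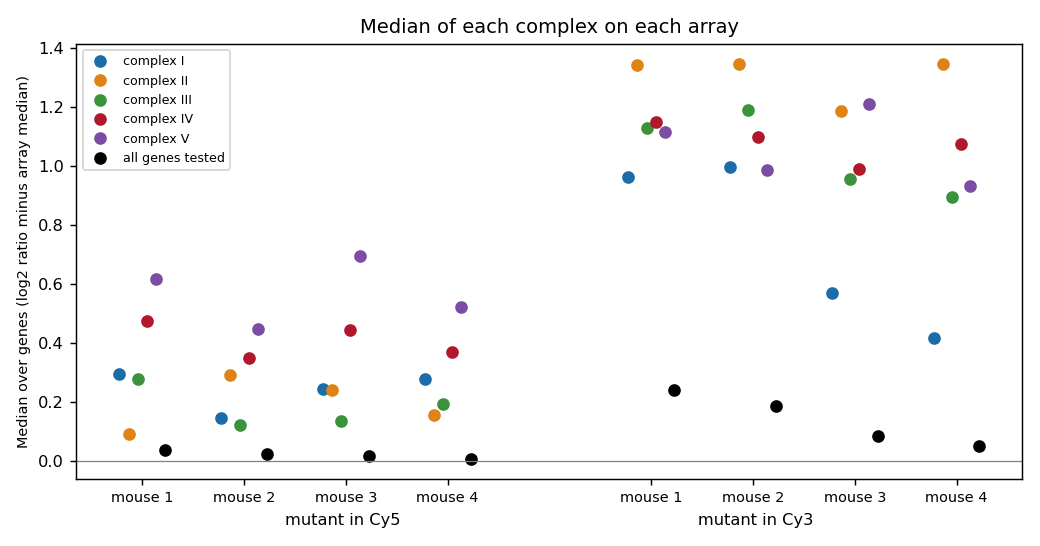
Median over the tested genes of each complex (coloured points) and over all 8107 genes (black) on each array, as log2 ratio minus the array's median, with the Cy5 arrays on the left and the Cy3 arrays on the right. The median of each complex lies above that of all genes on each of the 8 arrays, and the gap is wider on the Cy3 arrays.

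Within the chain the positive calls fell on subunits other than tissue isoforms. Of 64 subunits other than tissue isoforms, 43 were called positive and 1 negative, with a median of 0.67. Of 8 assembly factors and tissue isoforms tested, 0 were called positive and 2 negative, with a median of -0.074, and 3, all negative, had an unadjusted p below 0.05 in limma. These calls and low p-values belonged to the 5 tissue isoforms, and the 3 assembly factors tested had none. Among 31 assembly and maturation factors outside the symbol rule, 7 were called positive (22.6%), against 20.6% of all genes. Both groups of members were formed with the values of these genes already known, so the contrast is a description and was not tested.

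**Figure D2:**
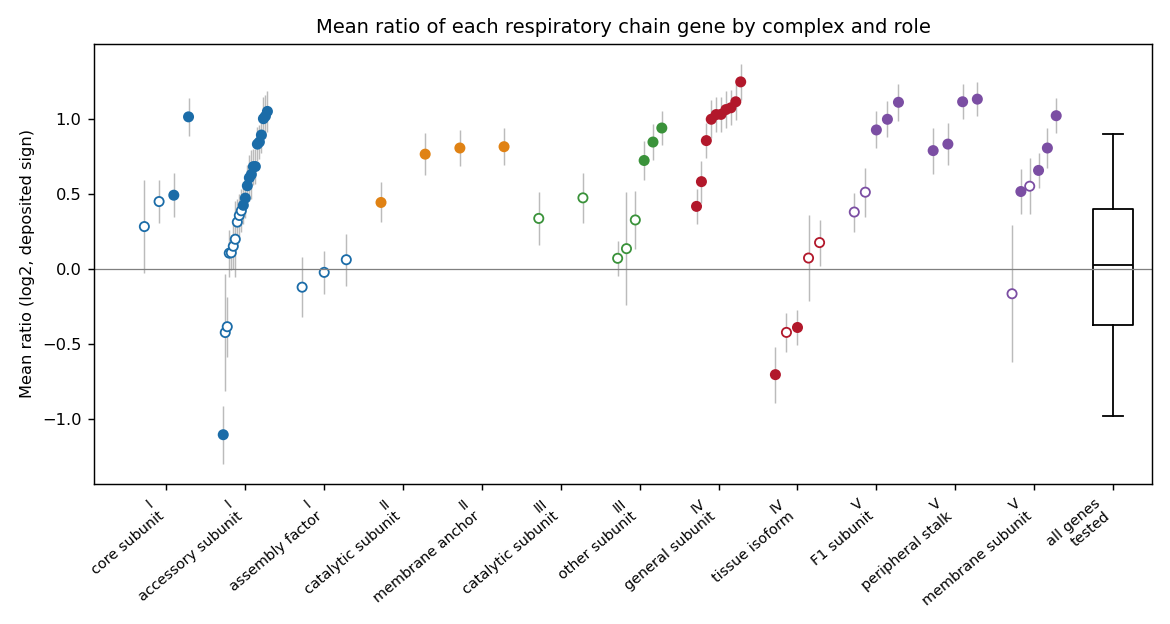
Mean ratio (log2, deposited sign) of each tested member by complex and role, with limma's moderated SE, and all 8107 genes as a box (median and quartiles, whiskers at the 5th and 95th percentiles). Filled points were called at an adjusted p below 0.05. The 10 general subunits of complex IV lie between 0.42 and 1.25 and are all filled, whereas its tissue isoforms lie between -0.71 and 0.17.

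Complex I, which takes electrons from NADH, had 15 members called positive and 1 negative of 30 tested, with a median of 0.43. Among the core subunits, Ndufs1, the largest iron-sulfur subunit, stood at 0.19, 0.31, 0.47 and 0.42 on the Cy5 arrays of mice 1 to 4 and at 1.54, 1.41, 1.83 and 1.93 on the Cy3 arrays. All 8 values were positive and the orientations did not overlap. Its mean ratio was 1.01 ± 0.127 (limma adjusted p = 0.00506) and its swap component -0.66 ± 0.101 (adjusted p = 0.0271). Ndufs8 was the other core subunit called, at 0.49 ± 0.145 (adjusted p = 0.0458), and Ndufs7 missed the threshold at 0.45 ± 0.143 (adjusted p = 0.056). Both bind iron-sulfur clusters near the quinone site.

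Ndufv1, which binds the flavin that first accepts electrons from NADH, had the most negative swap component of the chain. Its values were -0.08, -1.25, -2.23 and 0.22 on the Cy5 arrays and 2.10, 1.78, 0.46 and 1.25 on the Cy3 arrays. The signs differed between the orientations in mice 1, 2 and 3, and mice 2 and 3 were far below the others on the Cy5 arrays. The swap component was -1.12 ± 0.18 (limma adjusted p = 0.0271), while the mean ratio of 0.28 ± 0.312 was not called (adjusted p = 0.52).

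The 23 accessory subunits, which surround the core and are needed for stability, had 13 positive calls and 1 negative call, with a median of 0.47. Ndufa6, an accessory subunit of the matrix arm, had the highest mean ratio in complex I. It stood at 0.67, 0.63, 0.91 and 1.03 on the Cy5 arrays and at 0.99, 1.15, 1.68 and 1.31 on the Cy3 arrays. The lowest Cy3 value lay just under the highest Cy5 value, and the mean ratio was 1.05 ± 0.136 (limma adjusted p = 0.00515). Ndufc2, a subunit of the membrane arm, had 0.25, 0.22, 0.29 and 0.07 on the Cy5 arrays and 1.62, 1.70, 1.56 and 1.42 on the Cy3 arrays. The orientations were well apart. The mean ratio was 0.89 ± 0.117 (adjusted p = 0.00524) and the swap component -0.68 ± 0.0982 (adjusted p = 0.0271).

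Ndufb7, an accessory subunit on the intermembrane side, went against the rest of complex I. It stood at -1.05, -0.48, -1.28 and -1.06 on the Cy5 arrays and at -1.68, -0.38, -1.22 and -1.71 on the Cy3 arrays. All 8 values were negative, the orientations overlapped, and mouse 2 was nearest to 0 on both arrays. The mean ratio was -1.11 ± 0.194 (limma adjusted p = 0.00942), and it was still called with any one mouse left out. A single spot measured this gene, and 2 of its 8 values were ratios of whole numbers, which can mark a weak spot. The gene was therefore not tested with whole-number ratios left out. Ndufb3 (-0.39) and the mitochondrial acyl carrier protein Ndufab1 (-0.43) were also negative and were not called (adjusted p = 0.18 and 0.433). Values of Ndufab1 ranged from -2.23 on an array of mouse 3 to 0.59 on an array of mouse 2.

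The assembly factors of complex I gave no call in the mean ratio, and none was below 0.05 without adjustment in limma. Ndufaf3, which acts early in the assembly of the quinone-binding part, had 0.24, -0.51, -0.45 and -0.18 on the Cy5 arrays and 0.81, 0.38, -0.72 and -0.55 on the Cy3 arrays. Ndufaf5, which hydroxylates Ndufs7, had -0.60, 0.04, -0.26 and 0.60 on the Cy5 arrays and -0.34, 0.74, 0.36 and -0.07 on the Cy3 arrays. Both genes had values on either side of 0 in each orientation, with mean ratios of -0.12 ± 0.202 and 0.059 ± 0.174 (limma adjusted p = 0.663 and 0.814). Ndufaf1, which helps to build the membrane arm, had a mean ratio of -0.025 ± 0.142 (adjusted p = 0.908). Its values were 0.86, 0.68, 0.48 and 0.41 on the Cy5 arrays and -0.34, -0.48, -0.84 and -0.98 on the Cy3 arrays. Each orientation thus kept one sign in all 4 mice, and the swap component was 0.63 ± 0.0988 (adjusted p = 0.0271), positive where most of the chain was negative. This gene was singled out after its values were seen.

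Complex II, succinate dehydrogenase, is the smallest complex and also an enzyme of the citric acid cycle. All 4 of its subunits were called positive, with a median of 0.78. Sdha, the flavoprotein that oxidises succinate, differed in sign between the orientations. It had -0.12, -0.51, -0.21 and -0.47 on the Cy5 arrays and 1.5, 1.28, 1.2 and 0.86 on the Cy3 arrays. The swap component was -0.77 ± 0.103 (limma adjusted p = 0.0271). Its mean ratio of 0.44 ± 0.133 was just called (adjusted p = 0.0485) and missed the threshold with any one mouse left out, at 0.36 to 0.52. Sdhb, the iron-sulfur subunit, had -0.28, 0.43, 0.34 and 0.45 on the Cy5 arrays and 1.53, 1.64, 0.68 and 1.31 on the Cy3 arrays. Mouse 1 alone gave a negative value, and the mean ratio was 0.76 ± 0.14 (adjusted p = 0.0106).

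The membrane anchors Sdhc and Sdhd, which hold the heme and bind ubiquinone, lay close together at 0.80 ± 0.118 and 0.81 ± 0.124 (limma adjusted p = 0.00616 and 0.00653). Sdhc had 0.35, 0.35, 0.69 and -0.14 on the Cy5 arrays and 1.18, 1.35, 1.18 and 1.49 on the Cy3 arrays. Sdhd had 0.30, 0.23, 0.14 and 0.68 on the Cy5 arrays and 1.18, 1.34, 1.26 and 1.38 on the Cy3 arrays. In both genes every Cy3 value exceeded every Cy5 value. Sdhd was called in the swap component at -0.48 ± 0.103 (adjusted p = 0.0439), and Sdhc missed it at -0.49 ± 0.128 (adjusted p = 0.0598).

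Complex III, which passes electrons from ubiquinol to cytochrome c, had the smallest share of calls, with 3 of 8 positive and a median of 0.40. Neither subunit with a redox centre was called. Cyc1, cytochrome c1, had 0.33, 0.30, -0.22 and 0.08 on the Cy5 arrays and 1.15, 1.31, 0.65 and 0.17 on the Cy3 arrays. Mice 1 and 2 were higher than mice 3 and 4, and the mean ratio was 0.47 ± 0.166 (limma adjusted p = 0.074). Uqcrfs1, the Rieske iron-sulfur protein, had -0.60, -0.29, 0.25 and 0.36 on the Cy5 arrays and 0.61, 0.29, 1.03 and 1.03 on the Cy3 arrays. Here mice 3 and 4 were the higher ones, and the mean ratio was 0.33 ± 0.175 (adjusted p = 0.186).

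The 3 calls of complex III were the core proteins Uqcrc1 (0.72) and Uqcrc2 (0.84) and the small subunit Uqcr11. Uqcr11 had 0.56, 0.66, 0.24 and 0.87 on the Cy5 arrays and 1.16, 1.43, 1.56 and 1.01 on the Cy3 arrays. All values were positive and the orientations did not overlap, with a mean ratio of 0.94 ± 0.115 (limma adjusted p = 0.00493). Uqcrh, the hinge protein near cytochrome c1, ranged from -1.41 to 1.68 over the arrays and had a mean ratio of 0.13 ± 0.377, so its position is poorly known.

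Complex IV, cytochrome c oxidase, showed the widest contrast between the medians of its role groups, which were formed with the values already known. All 10 general subunits were called positive, with a median of 1.03, and the gene averages of 9 were positive on all 8 arrays. Among these 9 was Cox6a1, whose probe 8414 was called at 1.09. Its probe 17396 stood at 0.07, was not called and was negative on 5 of 8 arrays. The remaining general subunit, Cox4i1, had a probe called negative, and its gene call was lost with any 1 mouse left out, as described below. Of the 5 tissue isoforms of complex IV, 0 were called positive and 2 negative, with a median of -0.39. Spot intensities were not used, so whether these isoforms were detected in brain RNA is not known. Cox7c had the highest mean ratio of the chain. It stood at 0.69, 0.82, 0.71 and 1.18 on the Cy5 arrays and at 1.58, 1.54, 1.84 and 1.62 on the Cy3 arrays. The orientations did not overlap, and the mean ratio was 1.25 ± 0.119 (limma adjusted p = 0.00487). Cox8a, the form of subunit VIII used in most tissues, had 0.54, 0.12, 0.46 and 0.60 on the Cy5 arrays and 1.65, 1.78, 1.93 and 1.82 on the Cy3 arrays. Its mean ratio was 1.11 ± 0.12 (adjusted p = 0.00487) and its swap component -0.68 ± 0.106 (adjusted p = 0.0271).

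The heart and muscle form of the same subunit, Cox8b, had -0.38, -0.03, -0.64 and -0.43 on the Cy5 arrays and -0.59, -0.45, -0.31 and -0.30 on the Cy3 arrays. All values were negative and the orientations overlapped, with a mean ratio of -0.39 ± 0.119 (limma adjusted p = 0.0489). The call was lost with any one mouse left out, at -0.44 to -0.36, and with runs of 48 spots centred, at -0.07. Subunit VIIa gave a similar pair. Cox7a2, its widespread form, had a mean ratio of 1.07 ± 0.115 (adjusted p = 0.00487), with values from 0.37 to 1.80. Cox7a1, its heart and muscle form, had -0.67, -0.84, -0.98 and 0.11 on the Cy5 arrays and -1.38, -1.35, -0.03 and -0.51 on the Cy3 arrays. One value of 8 was positive, and the mean ratio was -0.71 ± 0.187 (adjusted p = 0.0323). Without mouse 1, 2 or 3 it was not called, at -0.60, -0.58 and -0.77. Its probes 6824 and 1313 stood at -0.61 (called) and -0.80 (not called).

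The other isoforms were not called. Cox6a2, of heart and muscle, had 0.38, 0.13, -0.07 and -0.89 on the Cy5 arrays and 0.65, 0.27, 0.45 and 0.46 on the Cy3 arrays. Its mean ratio was 0.17 ± 0.153, and the testis forms Cox7b2 and Cox6b2 had -0.43 ± 0.132 and 0.071 ± 0.284 (limma adjusted p = 0.414, 0.0526 and 0.866). One value of Cox6b2, 2.74 on the Cy5 array of mouse 2, was far above its others, which lay between -1.25 and 0.45.

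Cox6a1 (0.58) and Cox6a2 (0.17) lay on the same side of 0, as did Cox6b1 (1.03) and Cox6b2 (0.071). Cox7b (1.06) and Cox7b2 (-0.43) lay on opposite sides, but their start regions are not shown. Shown are the start regions of Cox7a2 and Cox7a1 and of Cox8a and Cox8b, pairs that also lay on opposite sides of 0. Each runs from 100 bases before the RefSeq transcription start to 10 bases into the transcript, 5′ to 3′ on the gene's strand (assembly GRCm38.p6). Cox7a2 lies at chr9:79759844-79759953 (minus strand), Cox7a1 at chr7:30184071-30184180 (plus), Cox8a at chr19:7217607-7217716 (minus) and Cox8b at chr7:140900437-140900546 (minus). Capitals mark an SP1 box in Cox7a2 and the binding letters of ETS factors such as GABPA, in reverse orientation, in Cox8a.
Cox7a2: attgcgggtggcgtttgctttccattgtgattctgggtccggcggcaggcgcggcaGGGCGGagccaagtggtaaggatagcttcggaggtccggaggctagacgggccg
Cox7a1: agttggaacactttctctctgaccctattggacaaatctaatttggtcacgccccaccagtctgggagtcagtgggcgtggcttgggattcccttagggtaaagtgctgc
Cox8a: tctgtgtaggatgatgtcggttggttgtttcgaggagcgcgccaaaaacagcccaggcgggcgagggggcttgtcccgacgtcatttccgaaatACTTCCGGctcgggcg
Cox8b: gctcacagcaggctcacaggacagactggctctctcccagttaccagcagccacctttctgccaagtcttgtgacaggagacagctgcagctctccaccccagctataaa
None of the searched motifs was found in the windows of Cox7a1 and Cox8b. A match is a description of letters and not a site, and a missing match says nothing about the factor.

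Windows of 300 bases (250 before and 50 after the start) were at hand for 61 members and for 27025 genes in the RefSeq table, and were searched on both strands. The core GCGCATGCG of NRF1, a regulator of nuclear genes for mitochondria, was in 7 members (11.5%) and in 1.95% of all genes. The YY1 letters AAGATGGC were in 9 members (14.8%) and in 3.19% of all genes. The letters CCGGAAGT of ETS factors were in 4 (6.56%, all genes 4.31%), the CREB letters TGACGTCA in 3 (4.92%, all genes 2.03%) and the SP1 box GGGCGG in 26 (42.6%, all genes 38.2%). The MEF2 motif of muscle genes was in 0 of the 61 and in 0.181% of all genes.

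Complex V, the ATP synthase, had 11 of 15 members called positive, with a median of 0.80, and 1 member, Atp5g3, with a negative mean ratio that was not called. Of the 5 subunits of the catalytic F1 head, 3 were called positive. Atp5b, the catalytic beta subunit, had 0.33, -0.15, 0.44 and 0.44 on the Cy5 arrays and 2.00, 1.91, 1.90 and 1.98 on the Cy3 arrays. The Cy3 values were nearly equal in the 4 mice and far above the Cy5 values. Its mean ratio was 1.11 ± 0.124 (limma adjusted p = 0.00487) and its swap component -0.84 ± 0.107 (adjusted p = 0.0271). Atp5a1, the alpha subunit, was not called at 0.38 ± 0.13 (adjusted p = 0.0693), and its probes disagreed, as described below.

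All 4 subunits of the peripheral stalk, which holds the head still against the turning rotor, were called, and their gene averages were positive on all 8 arrays. Atp5j, coupling factor 6, had 0.62, 0.53, 0.99 and 0.86 on the Cy5 arrays and 1.58, 1.68, 1.21 and 1.59 on the Cy3 arrays. Its mean ratio of 1.13 ± 0.114 (limma adjusted p = 0.00487) was the highest in complex V. Atp5h, subunit d, was the lowest of the stalk at 0.79 ± 0.153 (adjusted p = 0.0125) and was not called without mouse 3, at 0.70. It averaged 1.03, 0.02, 1.02 and 0.77 over its 3 probes on the Cy5 arrays and 0.58, 0.71, 1.06 and 1.10 on the Cy3 arrays. Of its probes, 18937 was called at 0.94, and 3650 and 19223, at 0.43 and 0.98, were not. Probe 19223 stood at -1.86 on the Cy5 array of mouse 2, and probe 3650 was negative on 2 arrays. Atp5pb and Atp5o lay between Atp5j and Atp5h at 1.11 and 0.83.

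Of the 6 membrane subunits 4 were called. Atp5l, subunit g, had 0.58, 0.49, 0.33 and 0.65 on the Cy5 arrays and 1.64, 1.70, 1.57 and 1.2 on the Cy3 arrays. Both of its probes stood at 1.02, the gene's mean ratio was 1.02 ± 0.117 (limma adjusted p = 0.00487) and its swap component -0.51 ± 0.112 (adjusted p = 0.0453). Atp5g3, a gene for the c subunit of the rotor ring, had 0.97, -4.06, -0.56 and -0.57 on the Cy5 arrays and -0.27, 0.01, 2.20 and 0.93 on the Cy3 arrays. The value of mouse 2 on its Cy5 array was the lowest of any member on any array. With a mean ratio of -0.17 ± 0.457 (adjusted p = 0.801) this gene could not be placed on either side of 0.

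Atp5k, subunit e, which with subunit g joins ATP synthase dimers, turned the orientation of the chain round. It had 1.25, 1.60, 1.49 and 1.49 on the Cy5 arrays and 0.16, -0.06, -0.25 and -0.44 on the Cy3 arrays. All 4 Cy5 values lay above all Cy3 values, opposite to its partner Atp5l. The swap component was 0.80 ± 0.115 (limma adjusted p = 0.0271). Its mean ratio of 0.65 ± 0.118 (adjusted p = 0.0102) was not called without mouse 2, at 0.62, and on the Cy3 arrays alone the gene stood at -0.15. A single spot measured it. Its start region and that of Ndufb7, both of genes that went against the rest, are shown in the same way as above, from chr5:108434390-108434499 (minus strand) and chr8:83566658-83566767 (plus strand), with overlapping matches to the NRF1 core in capitals.
Atp5k: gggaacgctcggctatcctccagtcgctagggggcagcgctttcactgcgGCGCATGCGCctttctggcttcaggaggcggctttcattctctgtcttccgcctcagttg
Ndufb7: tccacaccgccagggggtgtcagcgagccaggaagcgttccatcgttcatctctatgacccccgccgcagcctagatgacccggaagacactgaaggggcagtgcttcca
None of the searched motifs was in the 300-base window of Ndufb7.

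**Figure D3:**
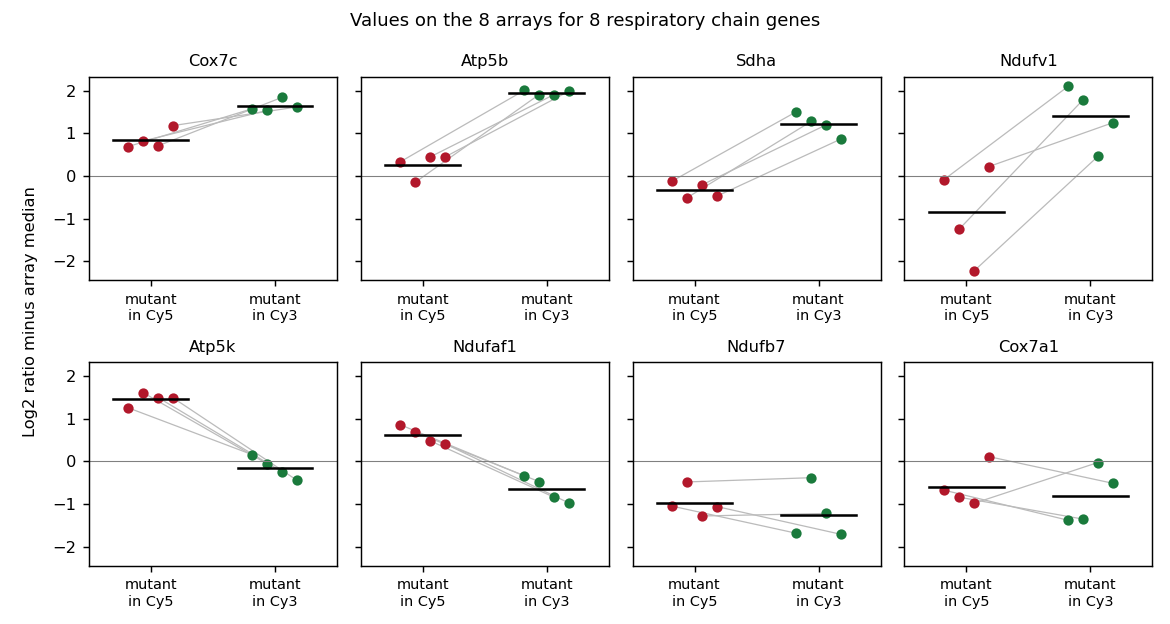
Values of 8 members on the 8 arrays (log2 ratio minus array median), with the Cy5 arrays on the left and the Cy3 arrays on the right of each panel. Grey lines join the arrays of a mouse, and black bars are means of 4. Cox7c, Atp5b, Sdha and Ndufv1 are lower on the Cy5 arrays, Atp5k and Ndufaf1 are higher there, and Ndufb7 and Cox7a1 overlap.

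In the swap component, 16 members were called negative and 2 positive, Atp5k and Ndufaf1. Among all genes 7.94% were called negative and 1.37% positive. The member median was -0.34 and that of all genes -0.077. The 16 were 4 subunits of complex I, 2 each of complexes II and III, 3 of complex IV and 5 of complex V. Each of these counts dropped to 0 with any one mouse left out, as did those of all genes, with 29 to 40 members negative at an unadjusted p below 0.05 in limma. They were also 0 when the arrays were scaled to one spread (26 negative and 4 positive unadjusted), and 5 negative and 2 positive with the values as deposited. Among all 8107 genes the counts were 0 with the arrays scaled, and 199 negative and 87 positive as deposited.

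The pattern of a positive mean ratio with a negative swap component, present in 55 of the 72 members (76.4%), was found in 40.9% of all genes. It went with the height of the mean ratio across the whole array. Of all 1348 genes with a mean ratio from 0.5 to below 1.0, 27.2% were called negative in the swap component and their median was -0.40. The 27 members in that range had 22.2% and -0.35. From 1.0 to below 1.5, all 242 genes had 74.0% and a median of -0.65, and the 13 members had 61.5% and -0.50. In both of these ranges the members' share and median lay closer to 0 than those of all genes. From 0 to below 0.5 it was the other way: the 23 members had 8.7% and a median of -0.30, and all 2606 genes had 3.07% and -0.14. From -0.5 to below 0 the 7 members had a median of -0.071 and no call, and all 2389 genes had 0.061 and 0.71%. These differences were not tested. The Cy3 arrays had the larger spread over all spots, and its part in this pattern was not tested.

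**Figure D4:**
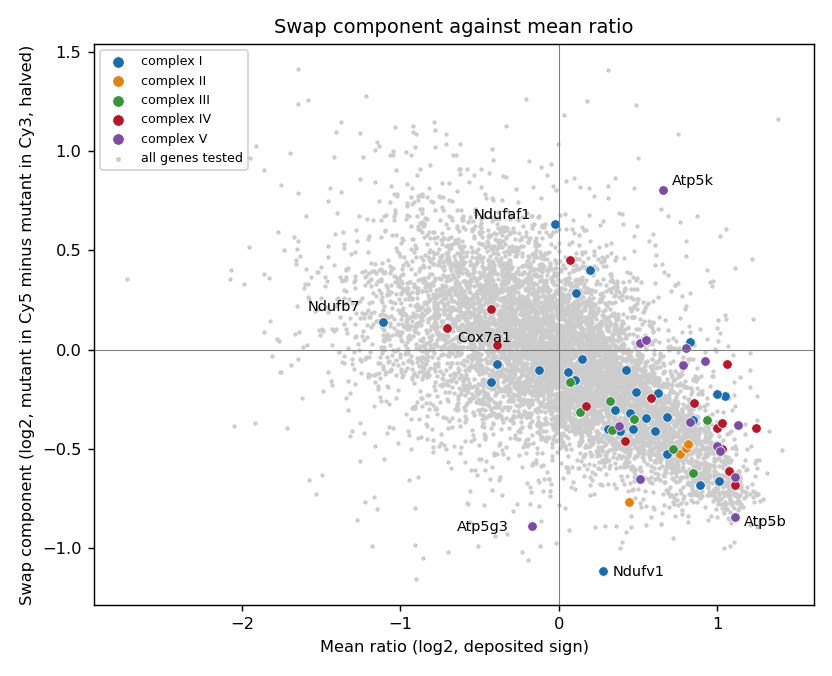
Swap component (vertical, log2) against mean ratio (horizontal, log2, deposited sign) for the tested members, coloured by complex, and for all 8107 genes in grey. Most members lie at the lower right, inside the grey cloud, while Atp5k and Ndufaf1 lie above 0 and Ndufv1 and Atp5g3 lie low at a small mean ratio.

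Where a gene had several probes, these did not always agree. Of 99 member probes, 59 were called positive and 5 negative when probes were tested on their own, against 20.1% and 14.6% of all 18797 probes. Of the 21 members with more than 1 probe, 8 had all probes called positive and 6 had probes of opposite sign. The naming shift had been chosen because probes of a gene then resembled each other, so agreement between probes is no independent support.

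Cox4i1, the regulatory subunit IV of complex IV, had 3 probes (674, 1453 and 16758) at 0.82, 1.06 and 0.96, all called. The remaining probe, 6784, stood at -1.18 ± 0.145 (limma adjusted p = 0.00592), with -1.14, -0.93, -0.69 and -1.42 on the Cy5 arrays and -1.35, -1.14, -1.26 and -1.48 on the Cy3 arrays. All 8 values of that probe were negative, whereas probe 1453 was positive on all 8. The gene average of 0.42 ± 0.118 (adjusted p = 0.0408) mixes both and was lost with any one mouse left out, at 0.37 to 0.44. Atp5a1 gave the same picture, with probes 6905 and 12097 at 0.88 and 0.96 and probe 15386 at -0.70, all 3 called. Probe 15386 was negative on all 8 arrays, from -1.27 to -0.19.

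Uqcrq, a small subunit of complex III, had probe 2574 at 0.63 (called), probe 11064 at 0.25 (not called) and probe 13586 at -0.67 (called), which left a gene average of 0.069 ± 0.115. In Ndufa5, an accessory subunit of the matrix arm of complex I, probe 11082 was called at 0.53 and probe 14016 stood at -0.32. In Ndufs4, an accessory subunit of the same arm, probe 3340 was called at 0.83 and probe 10914 stood at -0.12. The probes of Ndufb8 differed in sign with neither called. The probes of Ndufa10, another accessory subunit, were both called positive at 1.09 and 0.57 but had swap components of -0.48 and 0.56, neither called. Annotation, cross-hybridisation with relatives and transcript part were not examined as sources of these differences, since probe sequences were not used here.

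**Figure D5:**
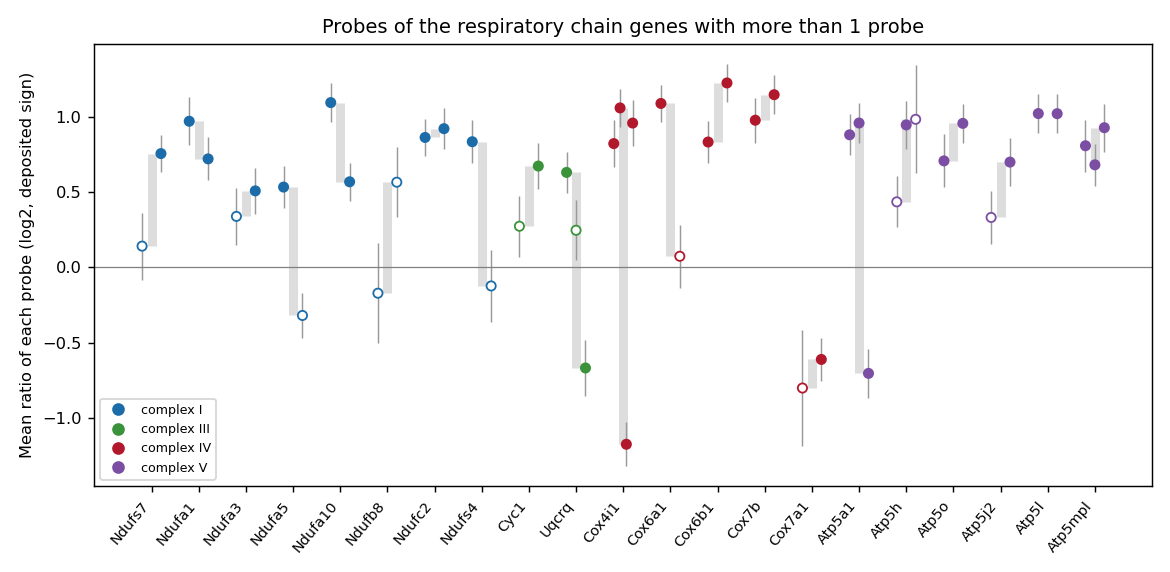
Mean ratio (log2, deposited sign) of each probe of the 21 members with more than 1 probe, with limma's moderated SE and points filled where called at an adjusted p below 0.05. Grey bars span the probes of a gene. The lone negative probes of Cox4i1, Atp5a1 and Uqcrq lie at -1.18, -0.70 and -0.67 beneath positive ones.

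Other mitochondrial genes were read in the same fit. Among 31 assembly and maturation factors outside the symbol rule, 7 were called positive and 1 negative in the mean ratio, with a median of 0.11. The positive share, 22.6%, was near the 20.6% of all genes. Higd2a, which helps to join supercomplexes, stood at 0.91 ± 0.122 and Cox20, a chaperone of the subunit Cox2, at 0.89 ± 0.115 (limma adjusted p = 0.00535 and 0.00515). Uqcc2, an assembly factor of complex III, stood at -1.76 ± 0.207 (adjusted p = 0.00487), below every member of the chain. Of 10 regulators of mitochondrial biogenesis 1 was called (10%, all genes 20.6% positive), the coactivator Ppargc1a at 0.63 ± 0.145 (adjusted p = 0.0208). Their median was -0.045. Of 12 genes for coenzyme Q and its electron donors 1 was called positive (8.33%), with a median of 0.098. It was Etfb of the electron transfer flavoprotein, at 0.43 ± 0.129 (adjusted p = 0.0481).

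Of 21 genes of the outer membrane, import and membrane shape, 11 were called, all positive (52.4%, all genes 20.6%), with a median of 0.47. Vdac1, the main channel of the outer membrane, stood at 1.18 ± 0.126 and the chaperonin Hspe1 at 0.94 ± 0.114 (limma adjusted p = 0.00487 for each). Of 8 carriers and coupling proteins, 5 were called positive and 2 negative, against 20.6% and 12.4% of all genes, with a median of 0.67. Slc25a5, an ADP/ATP carrier, stood at 1.02 ± 0.149 and Slc25a14 at 0.73 ± 0.14. Ucp1, the uncoupling protein of brown fat, stood at -1.22 ± 0.273 and Slc25a13, an aspartate and glutamate carrier, at -0.59 ± 0.144.

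Markers of the main brain cell types had positive mean ratios too. Of all genes, 20.6% were called positive and 12.4% negative. Of 16 neuron markers 12 were called positive and 1 negative, the GABA-synthesising enzyme Gad1 at -0.77 ± 0.138, with a median of 0.82. Astrocyte markers had 8 calls of 14, with a median of 0.72, and oligodendrocyte markers 5 calls of 8, with a median of 0.61, and all of these calls were positive. Uchl1 and Syp led the neuron markers at 1.13 each, Glul (1.25) and Aldh1l1 (1.18) the astrocyte markers, and Cnp (1.08) and Qdpr (0.92) the oligodendrocyte markers. Microglia markers had 2 positive and 3 negative calls of 8 (median 0.12), and endothelial and pericyte markers 2 positive calls of 7 (median 0.23). Their positive shares, 25% and 28.6%, were near that of all genes. Choroid plexus markers had 1 positive and 1 negative call of 3 (median -0.13), and blood cell markers 1 and 3 of 5 (median -0.86). In these lists C1qb (0.94), Cdh5 (0.82), Ttr (0.87) and Hba-a1 (0.94) stood highest, and Aif1 (-0.96), Trpv4 (-0.93) and S100a8 (-1.51) were negative. In the swap component 8 of 16 neuron, 4 of 14 astrocyte and 4 of 8 oligodendrocyte markers were called negative. So were 6 of 21 outer membrane and import genes, against 7.94% of all genes. No gene was called in the swap component with any 1 mouse left out or with arrays scaled to one spread. In mice 1 to 4 the median member stood at 0.74, 0.62, 0.57 and 0.62 in the mean ratio, and the median neuron marker at 0.98, 0.81, 0.98 and 0.69. The median astrocyte marker stood at 0.72, 0.64, 0.87 and 0.75, and the median oligodendrocyte marker at 0.69, 0.54, 0.60 and 0.56. The member medians lay between those of neuron markers and those of all genes in every mouse. They lay above those of astrocyte and oligodendrocyte markers in some mice and below them in others. The part of cell makeup in the members' values was not tested.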

How the data were processed

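The deposited values are log2 ratios with 1 additive constant per array, which was inferred from the values. The sources used here do not name the scanner, background correction, normalisation, centring or numerator. Codes for an empty denominator (1 to 30 per array) and empty cells (221 to 553) were treated as missing. Here each array's median (-0.571 to -0.0045 as deposited) was subtracted, and probes with values on all 8 arrays were averaged per gene. An intercept was fitted to the 4 mouse values of each quantity with lmFit and eBayes of limma 3.58.1 in R 4.3.3, over 8107 genes (18797 spots for single probes), with Benjamini-Hochberg adjustment at 0.05. The test was run on simulated data first. All columns of values were used, and both arrays of a mouse count as 1 replicate. Alternatives concerned centring, dye orientation, missing and whole-number ratios, probe level, naming, array position, robust moderation, array scaling (added after seeing the data) and the mice used.

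Gene names come from the platform annotation of 12771 probes with 1 symbol, shifted by 11 spots and used up to probe 20000. The RefSeq table (GRCm38.p6) held all member symbols and gave the promoter sequences. Genes were named by a rule: in each complex or role the members with the largest and smallest mean ratio, calls opposite to the median of their complex, the 6 largest calls in the swap component, genes with discordant probes, and at most 2 genes per direction of each other list. Ndufaf1 and the further members whose values are given beyond it were chosen after their values were seen. The members, lists and tests were chosen with earlier results of these data known. Whether the 4 mice came from separate litters is not given, so p-values measure only the spread between these mice.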

Additional observations from a re-analysis of the deposited data

Results flagged for a closer look

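In 5 of 62 sets of 4 mouse values (both quantities of the 30 named members and of the median member), 1 mouse lay apart from the other 3 by Dixon's test, which sets the gap to the nearest mouse against the whole range. Chance gives about 1 in 20. In the mean ratio, Ndufb7 stood at -0.43 in mouse 2 and between -1.38 and -1.25 in the others. Ndufc2 stood at 0.74 in mouse 4 and between 0.93 and 0.96 in the others. Atp5b stood at 0.88 in mouse 2 and between 1.17 and 1.21 in the others. Atp5j stood at 1.22 in mouse 4 and at 1.10 in each of the others. In the swap component, Cox7a1 stood at -0.48 in mouse 3 and between 0.26 and 0.35 in the others. The 4 mean ratios kept their sign in all 4 mice and stayed called with the distant mouse left out.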

How the results depend on the processing

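Of 43 positive member calls in the mean ratio, 32 to 34 were counted with 1 mouse left out and 30 to 48 under the settings not named next, the Cy3 arrays alone (47) among them. Among all 8107 genes 1668 were called positive. That number was 1013 to 1296 with 1 mouse left out and 1818 on the Cy3 arrays alone. The member count was 0 from the Cy5 arrays alone (30 unadjusted), 0 from mice 1 and 2 alone (46 unadjusted), and 10 of 66 members with names read at the same spot number. Among all genes these counts were 0, 0 and 1625 of 8355. The 3 negative member calls became 0 on the Cy5 arrays alone and in mice 1 and 2 alone, 1 in mice 3 and 4 alone, 1 to 2 with 1 mouse left out, 5 with each probe on its own and 9 at the same spot number. Among all genes 1008 were called negative. That number was 829 in mice 3 and 4 alone, 561 to 867 with 1 mouse left out and 1103 of 8355 at the same spot number. The member median of 0.57 was 0.40 as deposited, 0.29 on the Cy5 arrays alone, 0.87 on the Cy3 arrays alone, 0.68 with each probe on its own, 0.67 in mice 1 and 2 alone, 0.51 to 0.65 with 1 mouse left out, and -0.073 at the same spot number. The 16 negative and 2 positive calls in the swap component were 0 and 0 with any 1 mouse left out, in mice 1 and 2 alone, in mice 3 and 4 alone and with arrays scaled to one spread (limma; unadjusted 14 to 40 negative and 2 to 4 positive). The negative count was 5 as deposited and 3 at the same spot number. Among all genes it was 644 in the main setting, 199 as deposited and 560 of 8355 at the same spot number. The members' swap median of -0.34 was -0.21 with runs of 48 spots centred and 0.033 at the same spot number. At the same spot number, which names other spots, the mean ratios of Ndufs1 (-0.25), Ndufa5 (-1.28), Ndufc2 (-0.40), Sdhb (-0.73), Sdhc (-1.49), Uqcr11 (-0.12), Atp5b (-0.38), Atp5g3 (1.05) and Atp5l (-0.25) turned sign and had been called or became so. So did the swap components of Ndufv1 (0.20), Ndufc2 (0.44), Sdhb (0.56), Atp5b (0.038), Atp5k (-0.45) and Atp5l (0.11). A further 5 mean ratios and 9 swap components turned sign there without a call in either setting. On the Cy5 arrays alone the called mean ratios of Sdha (-0.33) and Cox4i1 (-0.044) turned sign, as did 6 that were not called: Ndufv1 (-0.83), Cox6a2 (-0.11), Uqcrq (-0.095), Uqcrfs1 (-0.071), Ndufaf5 (-0.054) and Atp5a1 (-0.0096). On the Cy3 arrays alone the called mean ratio of Atp5k (-0.15) turned, and so did Ndufa5 (-0.18) and Atp5g3 (0.72), which were not called. Of 800 recomputed values of named members, 575 kept sign and side of the threshold or moved by less than 1 SD, 153 dropped below the threshold, 19 passed it anew, 35 moved by more than that without a call, and 18 turned sign with a call in either setting. Some settings used fewer arrays or other spots, and the causes of these changes were not tested. Without intensities, weak spots could be recognised from whole-number ratios alone.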
